A study of Homo sapiens with 4 samples.

Results

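The genes described here are 10 human genes of intermediate filament proteins, namely KRT5, KRT7, KRT8, KRT17, KRT18, KRT19, KRT80, KRT81, VIM and LMNA. They were chosen by gene name among the 60544 rows of the gene count table, as filament genes of luminal, basal and mesenchymal type, and each name matched 1 row. Poly(A) RNA was sequenced from cells of PC3, a human prostate cancer cell line, in all groups. The study compared METTL3 knockdown with control. METTL3 carries the catalytic site of the methyltransferase that places N6-methyladenosine (m6A) on messenger RNA. The labels give the same serum-containing medium for all 4 libraries and name no drug. The control group, labelled shNC, had 2 libraries, and the group labelled sh812 had 2, read as the knockdown because it is the only other label. A single hairpin label means that loss of METTL3 and any other action of that hairpin cannot be told apart.

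Intermediate filaments are rope-like polymers that give cells mechanical strength. Keratins fill the cytoplasm of epithelial cells and form only as pairs of an acidic type I chain (KRT17, KRT18, KRT19) with a basic type II chain (KRT5, KRT7, KRT8, KRT80, KRT81). In the prostate, KRT8 and KRT18 mark luminal cells, which secrete, and KRT5 marks basal cells. Vimentin, encoded by VIM, forms homopolymers in mesenchymal cells and in many cultured carcinoma cells. LMNA encodes lamins A and C, which line the inner nuclear membrane.

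Total gene counts ranged from 31450648 to 37041330 per library. Counts of METTL3 were 1682 and 1379 in shNC against 269 and 313 in sh812, so the target was lower in both sh812 libraries. Summed levels of 7 prostate luminal markers ran from 192 to 200 CPM (counts divided by the library size after TMM scaling) in shNC. In sh812 they ran from 168 to 175 CPM. HOXB13 made up most of this sum, at 161 and 168 CPM in shNC and 155 and 160 CPM in sh812. The sum therefore says little about the other luminal markers. KLK2 and KLK3 were at 0 counts in all 4 libraries. Of 4 prostate basal markers KRT14 was at 0, and of the leukocyte and neuroendocrine markers CD3E and INSM1 were at 0. The labels do not say that replicates came from separate cultures, so p-values measure the spread between these libraries, which may be technical.

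The members differed widely in abundance, and the hair-type keratin KRT81 led them. On the scale of CPM per kb of transcript, which allows genes of different length to be compared, KRT81 stood at 2175 ± 170 (SD, n = 2) in shNC and 2013 ± 41.0 (SD, n = 2) in sh812. Next came KRT7 at 352 ± 5.51, VIM at 326 ± 23.2 and KRT19 at 287 ± 23.8 CPM per kb in shNC (SD, n = 2 each). LMNA followed at 165 ± 7.42, then KRT8 at 109 ± 6.66 and KRT18 at 98.6 ± 13.7 CPM per kb (SD, n = 2 each). KRT80 was much lower at 13.4 ± 0.255 CPM per kb (SD, n = 2). In this order, VIM and KRT19 overlapped over the 4 libraries, and so did KRT8 and KRT18; the other neighbours did not overlap. KRT19 stood above VIM, and KRT18 above KRT8, in the sh812 means.

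**Figure D1:**
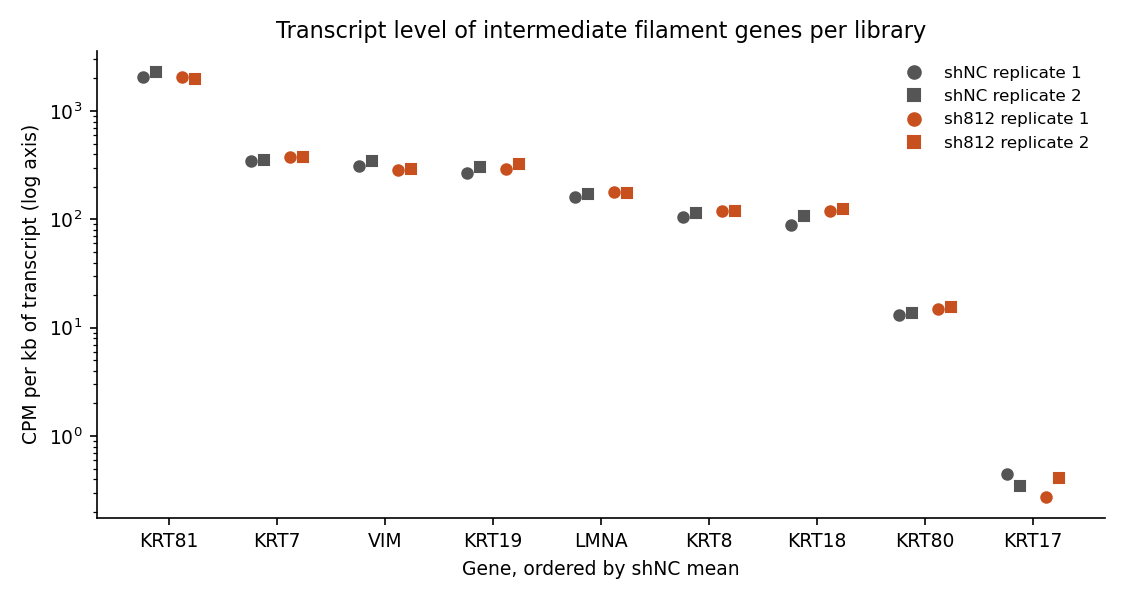
Level of 9 genes in each library, in CPM per kb of transcript on a log axis, with shNC in grey and sh812 in orange (circle, replicate 1; square, replicate 2). KRT81 lies between 1984 and 2295 CPM per kb, 6 genes lie between 88.9 and 378, KRT80 lies between 13.2 and 15.6 and KRT17 between 0.276 and 0.447. KRT5, with 0 counts in 3 libraries, is not drawn.

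KRT5 and KRT17, keratins of basal epithelial cells, were close to absent. Counts of KRT5 were 0 and 2 in shNC and 0 and 0 in sh812. A count of 0 allows up to 3 counts, which is between 0.0790 and 0.0949 CPM depending on the library, so no fold change is given. Between 70.7% and 71.4% of the counts from 1 to 10 were even, and whether a fragment could add more than 1 count is not given in the sources used here; if it could, this bound is too low. KRT17 had 28 and 18 counts in shNC and 16 and 24 in sh812, and the groups overlapped. Its log2 fold change was -0.22 (SE 0.55, adjusted p = 0.86 in edgeR), a depth at which a difference of this size was not detectable. Among keratins of stratified epithelia outside the 10 genes, KRT14 had 0 counts, while KRT15 had 207 and 153 counts in shNC and 161 and 167 in sh812. KRT10, a type I keratin of differentiating epidermis, was the most counted of that list, with 1376 and 1234 counts in shNC and 1232 and 1332 in sh812 (log2 fold change -0.057, adjusted p = 0.75 in edgeR).

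KRT81, a type II keratin of the hair cortex, was the sixth most counted row of the whole table. The shNC libraries held 150327 and 140000 of its counts, or 3963 and 4427 CPM. In sh812 it had 138276 and 136969 counts, or 3939 and 3827 CPM. Both sh812 libraries lay below both shNC libraries, but sh812 replicate 1 lay close to shNC replicate 1. The log2 fold change was -0.11 (SE 0.06, adjusted p = 0.23 in edgeR). With shNC replicate 1 left out it was -0.19 (adjusted p = 7.71e-08 in edgeR) and -0.024 without shNC replicate 2 (adjusted p = 0.69 in edgeR). In the annotation 30.3% of the 100-base windows of the KRT81 transcript occur identically in another gene, most of them in KRT86. KRT86, which spans KRT81 on the opposite strand, held only 106 and 112 counts in shNC and 118 and 107 in sh812, between 0.0705% and 0.0853% of the KRT81 count. The other hair-type paralogue KRT83 held 107, 91, 109 and 88 counts in the same order of libraries.

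The question of the comparison was whether these genes changed with METTL3 knockdown. Of the 9 genes that passed the low-count filter (all except KRT5), 1 was called, which is 11.1% of 9 beside 10.8% of all 16802 genes tested. A call is an adjusted p below 0.05 by the quasi-likelihood F test of edgeR, adjusted over all genes tested by the Benjamini-Hochberg method. The called gene was KRT18, and it was higher, beside 5.43% of all genes called higher. Of the 9 genes 0 were called lower by edgeR, beside 5.42% of all genes tested. DESeq2 also called 0 lower but gave KRT17 no adjusted p, and limma-voom called 1 lower (VIM). At an unadjusted p under 0.05 in edgeR, 2 more were higher (KRT8 and KRT80) and 1 was lower (VIM). By p, KRT8 ranked 3961 of the 16802 genes tested, so at least that many genes passed this threshold. Groups did not overlap in 7 of the 9 genes, beside 53.6% of all genes tested, with 5 higher (beside 26.2%) and 2 lower (beside 27.4%). The median over the 9 genes was 0.10 on the log2 scale, beside -0.0056 over all genes tested. The share called was close to that of all genes, whereas the counts without overlap (7 of 9 in all, 5 of 9 higher) lay above the shares over all genes.

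KRT18, the type I partner of KRT8 in simple epithelia, rose in sh812. Its counts were 5269 and 5350 in shNC, or 139 and 169 CPM. In sh812 they were 6519 and 6940, or 186 and 194 CPM. Both sh812 libraries lay above both controls, and shNC replicate 1 was the lowest of the 4. The means of shNC and sh812 were 154 ± 21.4 and 189.8 ± 5.81 CPM (SD, n = 2 each). The log2 fold change was 0.30 (SE 0.07, adjusted p = 0.00793 in edgeR), a rise of 23.3%. In log2 CPM the group means differed by 0.31 and the control replicates by 0.28, nearly as much. The call was lost without sh812 replicate 2 (log2 fold change 0.27, adjusted p = 0.0957 in edgeR), and the value was 0.17 without shNC replicate 1 (adjusted p = 0.0362 in edgeR) and 0.46 without shNC replicate 2. The 4 epithelial markers, KRT8 and KRT18 among them, summed to between 441 and 499 CPM in shNC and between 551 and 567 CPM in sh812. The other two, the adhesion genes EPCAM and CDH1, were called higher by edgeR, EPCAM by 0.45 (adjusted p = 0.000128) and CDH1 by 0.57 (adjusted p = 0.00511) on the log2 scale. The part of these markers in the KRT18 result was not tested.

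Transcript length moved with the groups and with the control replicates in these libraries. Across 12254 genes the Spearman correlation of the log2 difference with transcript length was -0.33 for sh812 against shNC and -0.32 for shNC replicate 2 against replicate 1, given as a description of libraries since genes are not replicates. KRT18 has a short transcript of 1562 bases. With the length trend of each library removed, its log2 fold change was 0.23 (adjusted p = 0.0206 in edgeR), so the call was kept with a smaller value. The tested genes whose pattern over the 4 libraries lay nearest to KRT18 were S100A6, a small calcium-binding protein gene, and RPS20, a ribosomal protein gene. Their root mean square differences from KRT18 in centred log2 CPM were 0.0122 and 0.0143, and 69 of 7704 candidate genes lay within 0.05. S100A6 and RPS20 have transcripts of 673 and 650 bases, and neither kept its call with the length trend removed. With 4 libraries such likeness is a description only. KRT8, KRT80 and KRT19 lay farther from KRT18, at 0.107, 0.108 and 0.115.

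KRT8, the type II chain that pairs with KRT18, had 8416 and 7650 counts in shNC, or 222 and 242 CPM. In sh812 it had 8858 and 9102 counts, or 252 and 254 CPM. The sh812 libraries were the higher pair, with shNC replicate 2 close below them. Its log2 change of 0.13 (SE 0.06) did not pass the test (adjusted p = 0.19 in edgeR), and it passed without shNC replicate 2, at 0.20 (adjusted p = 0.00238 in edgeR). Rows named as processed pseudogenes of KRT8 held 5.09% as many counts as KRT8 itself, and those of KRT18 held 1.10%; adding them left KRT18 at 0.30 and KRT8 at 0.12. KRT8 and KRT18 are neighbours on chromosome 12 and their annotated exons overlap on opposite strands, from 52897187 to 52949954 for KRT8 and from 52948871 to 52952901 for KRT18 in GENCODE 29 (GRCh38). Whether the counting used strand is not given in the sources used here, so reads from the overlap cannot be assigned.

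The ratio of KRT18 to KRT8 counts within a library needs no scaling. It was 0.626 and 0.699 in shNC and 0.736 and 0.762 in sh812, higher in both sh812 libraries. On the log2 scale the difference was 0.18 beside a pooled SD of 0.084. Leaving out shNC replicate 1 gave 0.099, and leaving out shNC replicate 2 gave 0.26. The exact permutation test over libraries, two-sided, gave p = 0.33, which is the smallest value that 2 against 2 libraries can give. Per kb of transcript the ratio was 0.852 and 0.952 in shNC and 1.00 and 1.04 in sh812.

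Of the other simple epithelial keratins, KRT7, a type II keratin of glandular epithelia, had 611 and 625 CPM in shNC and 662 and 658 CPM in sh812. The groups did not overlap, the replicates were close together, and the log2 fold change was 0.10 (SE 0.06, adjusted p = 0.30 in edgeR). KRT19, the smallest type I keratin, had 375 and 422 CPM in shNC and 405 and 450 CPM in sh812. Its groups overlapped, and its log2 fold change was 0.10 (SE 0.06, adjusted p = 0.35 in edgeR). KRT80, a type II epithelial keratin, had 51.1 and 52.5 CPM in shNC and 57.1 and 60.2 CPM in sh812, with no overlap. Its log2 fold change was 0.18 (SE 0.07, adjusted p = 0.13 in edgeR). Without shNC replicate 2, KRT7 and KRT19 passed at 0.12 and 0.20 (adjusted p = 0.0441 and 0.000678 in edgeR). With the length and GC trend removed KRT7 and KRT19 had values of 0.021 and 0.0052, and KRT80 passed at 0.21 (adjusted p = 0.0451 in edgeR). All 5 tested simple epithelial keratins were fitted higher, with positive values under each scaling tried. Of the 5, 1 was called (KRT18), which is 20% beside 10.8% of all genes tested. Their median log2 fold change was 0.13, beside -0.0056 over all genes tested. Leaving out shNC replicate 1 lowered this median to 0.080, and leaving out shNC replicate 2 raised it to 0.20 with 4 genes called; without sh812 replicate 2 the count called was 0. It was 0.084 with library size alone and also after removal of the length and GC trend.

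**Figure D2:**
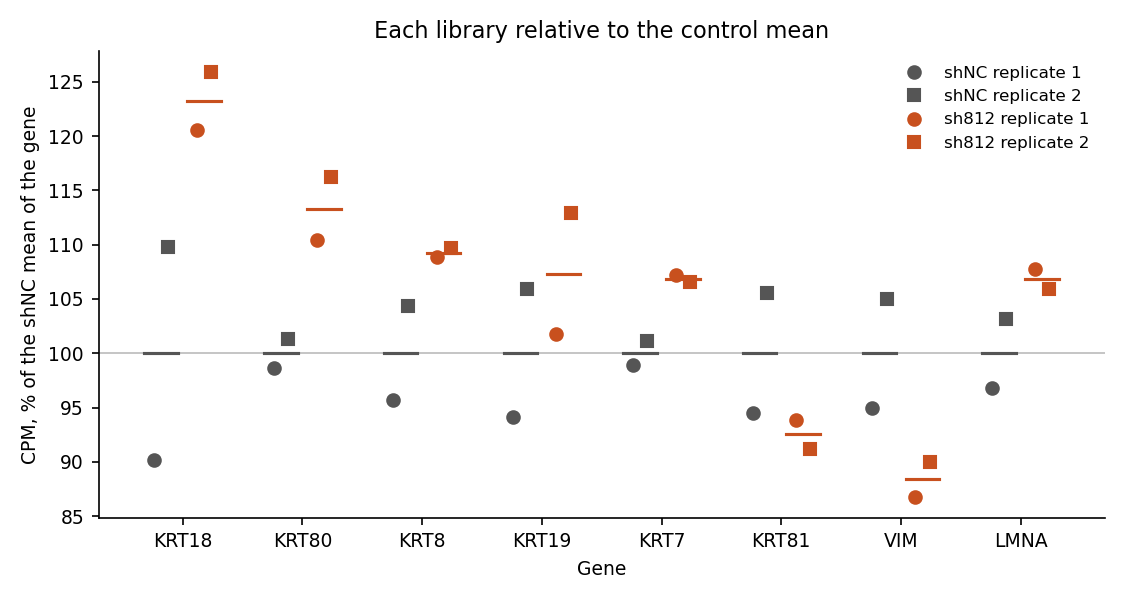
CPM of each library as a percentage of the shNC mean of the same gene, for 8 genes; points are libraries (shNC grey, sh812 orange), short lines are group means. KRT18 has the widest rise and the widest control gap, KRT19 overlaps between groups, and KRT81 and VIM lie lower in sh812.

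VIM was lower in both sh812 libraries and lay just outside the threshold. It had 21972 and 20256 counts in shNC, or 579 and 641 CPM. In sh812 it had 18586 and 19651 counts, or 529 and 549 CPM. The groups did not overlap. The log2 fold change was -0.18 (SE 0.06, adjusted p = 0.0550 in edgeR). It passed with library size alone (-0.22, adjusted p = 0.0112 in edgeR), with limma-voom (-0.17, adjusted p = 0.0366) and with the length trend removed (-0.23, adjusted p = 0.00511 in edgeR). With shNC replicate 1 left out it was -0.25, and with shNC replicate 2 left out -0.10 (adjusted p = 1.59e-06 and 0.12 in edgeR). VIM-AS1, which overlaps the start of VIM on the opposite strand, held 31, 49, 37 and 26 counts in shNC replicates 1 and 2 and sh812 replicates 1 and 2.

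The share of VIM in the summed counts of VIM and the 8 keratin genes was 9.75% and 9.74% in shNC and 8.78% and 9.16% in sh812. The controls lay almost at 1 value, and both sh812 libraries lay below it. The difference was -0.77 percentage points, and the exact permutation p, two-sided, was 0.33, again the smallest possible. KRT81 held 73.9% and 74.6% of the summed keratin counts in shNC and 71.6% and 70.3% in sh812. The summed keratin level was 5362 and 5938 CPM in shNC and 5503 and 5445 CPM in sh812, with overlap (log2 difference -0.044, exact permutation p = 1, two-sided; 0.030 without shNC replicate 2). Without KRT81 the sum was 1399 and 1511 CPM in shNC and 1563 and 1618 CPM in sh812, without overlap. The total with KRT81 had no settled direction.

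**Figure D3:**
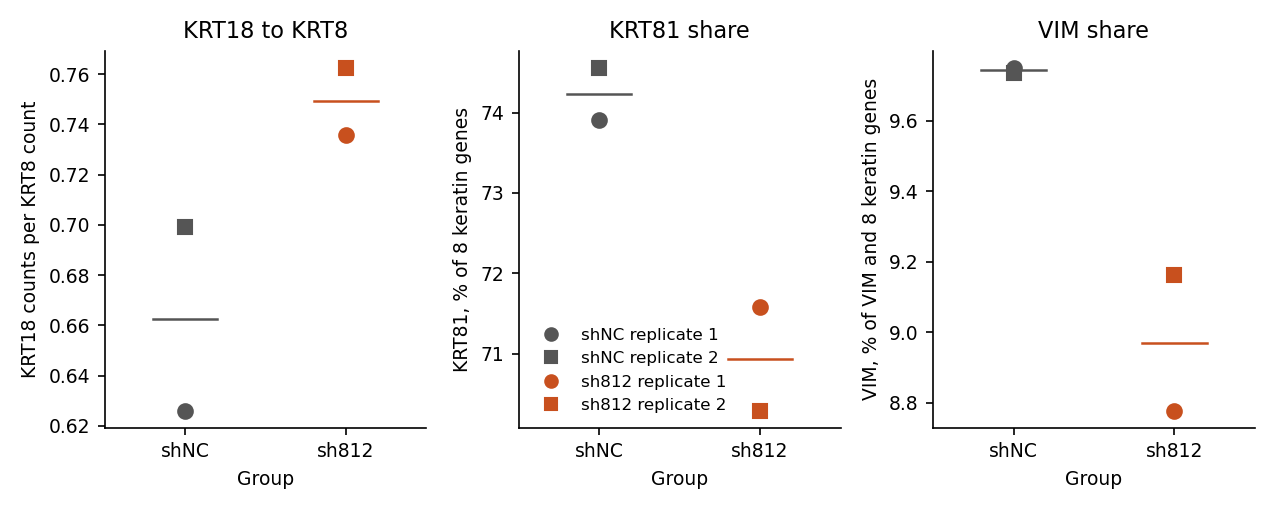
Within-library ratios by group, 1 point per library (circle, replicate 1; square, replicate 2) with group means as lines: KRT18 counts per KRT8 count, the percentage of the summed keratin counts in KRT81, and the percentage of VIM in the summed counts of VIM and 8 keratin genes. The axes do not start at 0. In all 3 panels the groups do not overlap.

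LMNA had 508 and 542 CPM in shNC and 566 and 556 CPM in sh812. Both sh812 libraries lay above both controls, with shNC replicate 2 close below them. The log2 fold change was 0.10 (SE 0.06, adjusted p = 0.32 in edgeR), and 0.15 without shNC replicate 2 (adjusted p = 0.00987 in edgeR). LMNB1, which encodes a B-type lamin, rose from 138 ± 0.129 CPM in shNC to 161 ± 2.88 CPM (SD, n = 2 each), with a log2 change of 0.22 (SE 0.06, adjusted p = 0.0163 in edgeR). The call of LMNB1 was lost without sh812 replicate 1 and without sh812 replicate 2, with log2 changes of 0.21 and 0.24. LMNB2 had a log2 change of 0.082 (adjusted p = 0.40 in edgeR). LMNA counts per LMNB1 count were 3.68 and 3.93 in shNC and 3.47 and 3.49 in sh812.

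Lists of related genes were read from the same fit. Of 10 tested genes among 15 other cytoplasmic and nuclear filament genes, VIM and LMNA included, 2 were called higher (NEFL and LMNB1) and 1 lower (NES), which is 30% beside 10.8% of all genes tested, with a median log2 change of 0.089. A minimum mean CPM of 1, which left 8 genes tested, lowered this median to 0.0034, it was 0.050 when shNC replicate 1 was left out, and it reached 0.19 when shNC replicate 2 was left out. Without either sh812 library 1 was called. NEFL, which encodes the neurofilament light chain of neurons, had 11714 and 10109 counts in shNC and 14595 and 14961 in sh812. Its log2 fold change was 0.41 (SE 0.06, adjusted p = 3.19e-05 in edgeR). NES, which encodes nestin of progenitor cells, fell from 267 ± 8.06 to 232 ± 0.906 CPM (SD, n = 2; log2 fold change -0.20, adjusted p = 0.0260 in edgeR). The call of NEFL was kept in each alternative, whereas that of NES was lost with the length trend removed (-0.13) and, at -0.20 and -0.21, without sh812 replicate 1 and without sh812 replicate 2. Of 5 tested stratified keratins and 6 tested hair keratins 0 were called in edgeR, in DESeq2 or in limma-voom. At an unadjusted p under 0.05 in edgeR there were 1 and 0, beside at least 3961 of all 16802 genes tested. Their median log2 fold changes were -0.16 and -0.073. KRT6A, chosen after its values were seen, had 28 and 14 counts in shNC and 46 and 58 in sh812 (adjusted p = 0.0606 in edgeR; DESeq2 gave it no adjusted p). It was the 1 stratified keratin called, higher, with no low-count filter, with a mean CPM of at least 1 and without shNC replicate 1. For the stratified list, removal of shNC replicate 1 put the median at -0.014 and removal of shNC replicate 2 at -0.31. Of the hair keratins 1 was called lower with library size alone, with no low-count filter and with the length trend removed, and 2 when shNC replicate 1 was left out. Their median ranged from -0.21, with sh812 replicate 1 removed, to -0.015 with no low-count filter.

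Plakins and desmosomal proteins anchor keratin filaments to cell junctions. Of 18 tested genes of this list 3 were called higher and 1 lower, which is 22.2% beside 10.8% of all genes tested, with a median log2 change of -0.026. With the length trend removed 6 were called higher and 0 lower, and the median turned to 0.051. The count called was 8 without shNC replicate 2 (4 higher, 4 lower), 1 without shNC replicate 1, 1 without sh812 replicate 1 and 0 without sh812 replicate 2. DSC2, a desmosomal cadherin gene, rose from 37.2 ± 2.49 CPM in shNC to 50.4 ± 5.50 CPM (SD, n = 2 each; log2 fold change 0.44, adjusted p = 0.00201 in edgeR). The plakophilin genes PKP2 and PKP3 rose by 0.32 and 0.25 on the log2 scale (adjusted p = 0.0388 and 0.0392 in edgeR). The call of PKP2 was lost with library size alone (adjusted p = 0.0841 in edgeR) and in DESeq2 (adjusted p = 0.0616). That of PKP3 was lost with library size alone, with no low-count filter and with the length and GC trend removed (adjusted p = 0.0952, 0.0566 and 0.0605 in edgeR). MACF1, a spectraplakin gene that links actin and microtubules, had a log2 change of -0.25 (adjusted p = 0.0277 in edgeR), and its call was lost with the length trend removed. Without sh812 replicate 2 the calls of all 4 genes were lost, and without sh812 replicate 1 or shNC replicate 1 those of PKP2, PKP3 and MACF1 were lost. MACF1 moved to -0.094 when shNC replicate 1 was left out and to -0.38 when shNC replicate 2 was. DSP and PLEC, which encode the keratin linkers desmoplakin and plectin, were not called, at 0.13 and -0.11 (adjusted p = 0.24 and 0.23 in edgeR).

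The last list held partners of the nuclear lamina and enzymes that process lamins. Of 21 tested genes 2 were called higher and 2 lower, all of them partners, which is 19.0% beside 10.8% of all genes tested, with a median log2 change of -0.018. The count called ran from 1 without sh812 replicate 1 to 6 without shNC replicate 2, and was 2 without sh812 replicate 2; the median there was 0.010, and leaving out either shNC library also made it positive (0.0029 and 0.0061). EMD (emerin) and LBR (lamin B receptor) rose by 0.24 and 0.23 on the log2 scale (edgeR adjusted p = 0.0109 and 0.0267). SYNE2 and SYNE1, giant nesprins that join the nuclear envelope to the cytoskeleton, were at -0.76 and -0.47 on the log2 scale (edgeR adjusted p = 0.000477 and 0.0402). SYNE2 had 880 and 530 counts in shNC and 405 and 432 in sh812, so shNC replicate 1 stood apart. The call of SYNE2 was kept in each alternative, and those of SYNE1 and EMD were lost with the length trend removed. SYNE1 also lost its call in DESeq2 (adjusted p = 0.0928), and LBR with library size alone (adjusted p = 0.0819 in edgeR). Without shNC replicate 1, SYNE2 was at -0.51 and SYNE1 at -0.21. Without sh812 replicate 1 and without sh812 replicate 2 the calls of EMD (0.25 and 0.22) and LBR (0.19 and 0.26) were lost, and SYNE1 lost its call without shNC replicate 1 and without sh812 replicate 1. ZMPSTE24, the protease that matures lamin A, was at -0.039 (adjusted p = 0.75 in edgeR).

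**Figure D4:**
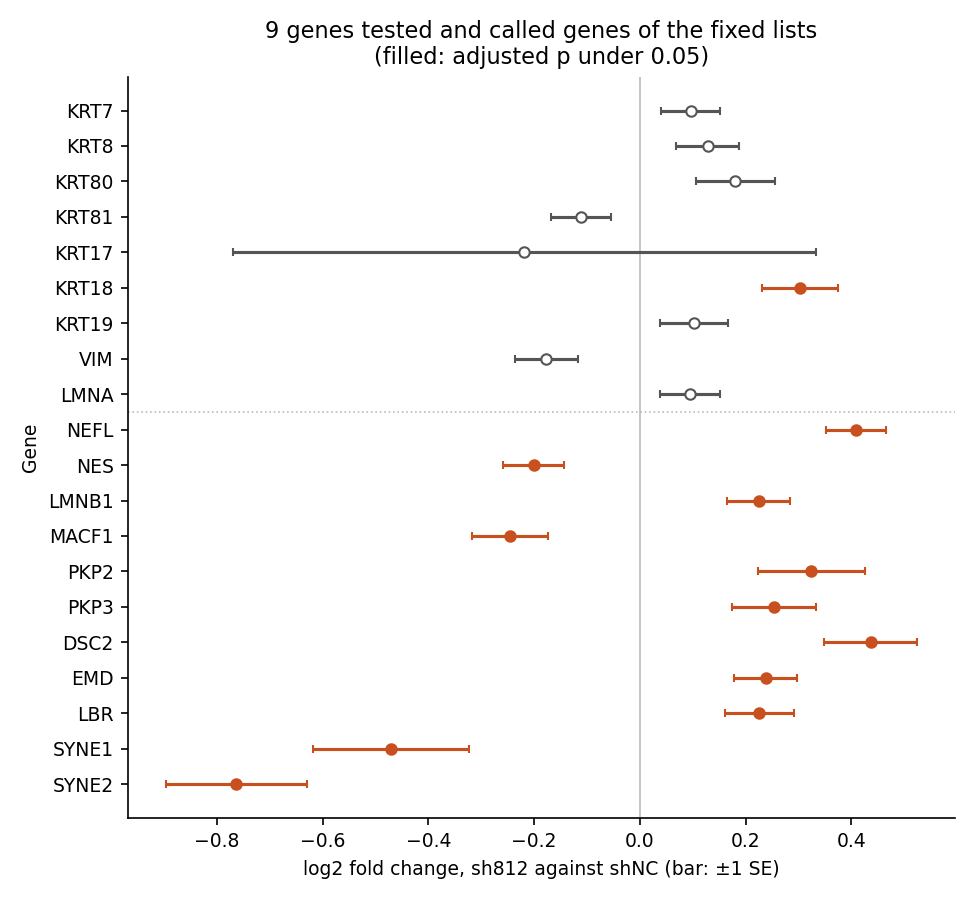
Log2 fold change of sh812 against shNC with bars of 1 SE for the 9 tested genes (above the dotted line) and for the called genes of the fixed lists (below it); filled orange points have an adjusted p under 0.05 in edgeR. KRT18 at 0.30 is the filled point of the upper part, and values of the lower part run from -0.76 for SYNE2 to 0.44 for DSC2.

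The sequence GGACT is a core form of the motif that METTL3 is known to methylate, and it was looked for on the sense strand in 1 principal transcript of each gene in GENCODE 29. It occurred 2 times in KRT18, 2 times in VIM, 3 times in KRT81 and 7 times in KRT80, and 1 time in each of KRT5, KRT7, KRT8, KRT17 and KRT19. LMNA had 2. The density was 1.81 per kb in KRT80, the highest of the members, 1.56 in KRT81, 1.28 in KRT18 and 1.07 in VIM. Lower were KRT19 (0.719), LMNA (0.627), KRT17 (0.606), KRT7 (0.57), KRT8 (0.470) and KRT5 (0.395). The median was 0.932 per kb over 13239 tested coding genes, of which 8.46% had none. The occurrence nearest to the stop codon is shown for KRT18, KRT8, KRT7, KRT81 and VIM, with GGACT in capitals and 8 bases on each side.
KRT18: gatggcgaGGACTttaatctt
KRT8: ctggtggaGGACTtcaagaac
KRT7: gtggtggaGGACTtcaagaat
KRT81: ctgaacatGGACTgcatcatt
VIM: gactcggtGGACTtctcgctg
In KRT18 its A is base 1376 of the transcript, and the stop codon ends at base 1503. In KRT8 it is base 954, with the stop codon ending at base 1885, and in VIM it is base 399, with the stop codon ending at base 1546. Among the genes not shown, the nearest occurrence follows the stop codon in KRT80 (base 1506, stop codon ending at base 1457). The same holds in KRT17 (base 1501, stop codon ending at base 1498). It precedes the stop codon in KRT5, KRT19 and LMNA. A match describes these letters and is not a measured m6A site.

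Over the 16 alternatives of each gene, KRT18 was called in 15, VIM in 7 and KRT81 in 5. KRT18 kept a positive value in all 16, and VIM and KRT81 kept negative values in all 16. The alternative with a prior count of 2 changes the fitted value and not the p-value, so it could not change a call. Adding pseudogene rows added 0 rows to VIM and to KRT81, so it could hardly change their results.

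**Figure D5:**
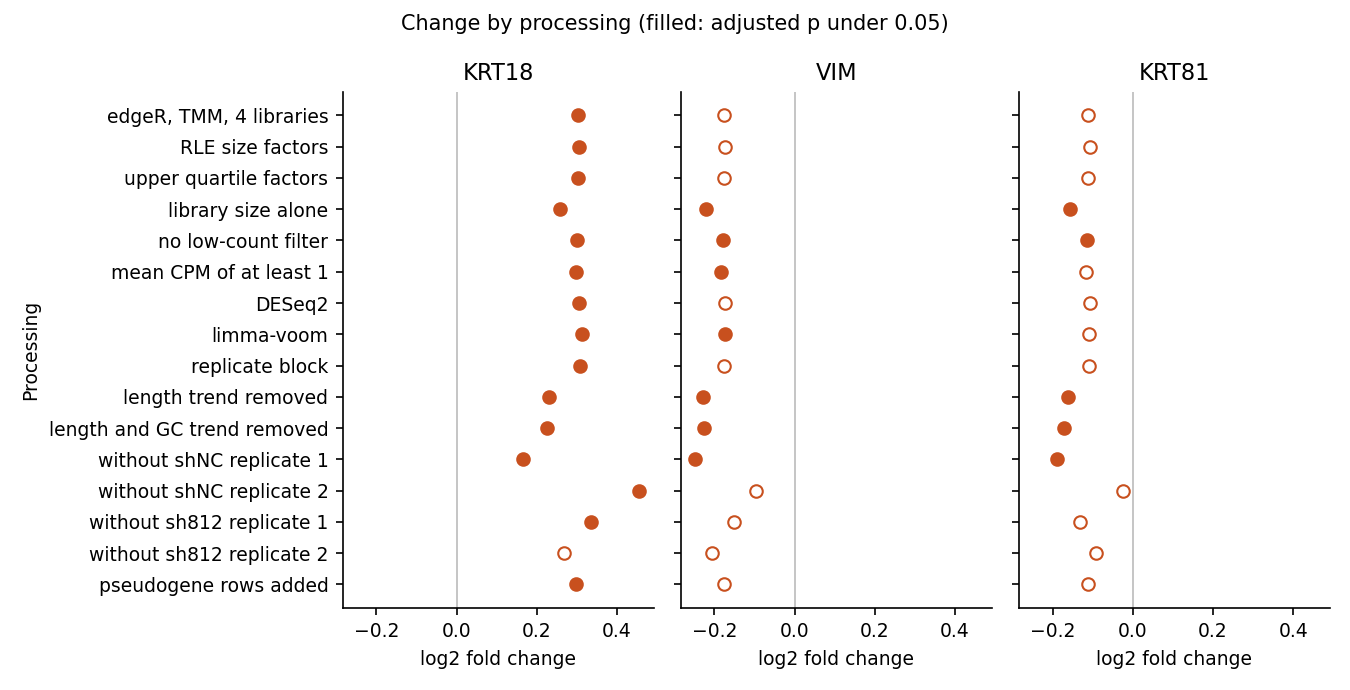
Log2 fold change of KRT18, VIM and KRT81 under each processing, with filled points for an adjusted p under 0.05. KRT18 is filled in all settings drawn except without sh812 replicate 2, where it is 0.27; VIM and KRT81 are filled in some settings and lie below 0 in all of them.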

How the data were processed

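The deposited table holds raw counts per gene, whole numbers that differ in total between the 4 libraries. Per the submitters' processing notes, fastp, STAR 2.7.1a, featureCounts, DESeq2 and the build hg38 were used; the annotation release, the strand setting and whether a read or a pair was counted are not given in the sources used here. Between 70.7% and 71.4% of the counts from 1 to 10 in a library were even. The test was the quasi-likelihood F test of edgeR 4.0.16 (R 4.3.3; filterByExpr, TMM scaling, glmQLFit, glmQLFTest; two-sided; no covariate), with Benjamini-Hochberg adjustment over all 16802 genes tested. Fold changes used a prior count of 0.125. CPM used TMM-scaled library sizes. Alternatives used DESeq2 1.42.0 and limma 3.58.1. Gene models came from GENCODE 29 (GRCh38), where 16635 of the tested genes were found. The methods were tested on simulated counts. Replicates differed by a chi-square per gene of 8.43 (shNC) and 4.51 (sh812), so each library counted once.

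The members and the 6 lists (113 entries) were chosen with earlier results of these data known. Named genes are the 10 members, METTL3, the called genes of the lists and, for each called member, the 2 genes with the nearest pattern among those with a mean CPM of at least 20. Other genes were named as contrasts after their values were seen. Some marker genes are not reported here. Fibroblast markers summed to between 47.7 and 54.0 CPM, endothelial markers to 23.8 in both shNC libraries and between 32.9 and 38.8 in sh812 (nearly all PECAM1), leukocyte markers to between 1.34 and 1.58 in shNC and between 0.627 and 0.922 in sh812, neuroendocrine markers to between 0.422 and 0.838, and basal markers to between 5.22 and 5.98 in shNC and between 4.93 and 5.17 CPM in sh812.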

Additional observations from a re-analysis of the deposited data

How the results depend on the processing

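Depth limits KRT5 and KRT17, and 2 libraries per group limit every call. The alternatives were planned, except the keratin sum without KRT81, chosen after seeing the data. For the genes described here they included a prior count of 2, which cannot change a call. METTL3 kept its call in all 14 of its alternatives. KRT18 kept its call in 15 of 16, with values from 0.17 to 0.46. The number of the 10 genes called was 3 with library size alone and 3 without a low-count filter, against 1. It was 2 with a mean CPM of at least 1, where KRT5 and KRT17 were not tested, and 2 with limma-voom. With the length trend removed it was 3, and with the length and GC trend removed it was 4. All genes called in these 6 settings, in that order, were 1889, 1934, 2026, 1907, 1623 and 1735, against 1822. VIM was past the threshold in these 6 settings, at -0.22, -0.18, -0.18, -0.17, -0.23 and -0.23. KRT81 was past it in 4 of them, with library size alone (-0.16), without a low-count filter (-0.11), with the length trend removed (-0.16) and with the length and GC trend removed (-0.17). KRT80 was past it in the last of these (0.21). The keratin sum had a log2 difference of 0.13 without KRT81, against -0.044. With library size alone, which moved the median of all genes to -0.050, 29.7% of called genes were higher.

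Leaving out 1 library in turn leaves a group with 1 library, which is assumed to vary like the other group. The count of all genes called then ran from 587 without sh812 replicate 1 to 3252 without shNC replicate 2, and was 682 without sh812 replicate 2, against 1822. The number of the 10 genes called ran from 0 without sh812 replicate 2 to 5 without shNC replicate 2, and was 3 without shNC replicate 1. Values ran from 0.17 to 0.46 for KRT18, from -0.25 to -0.10 for VIM, from -0.19 to -0.024 for KRT81, from 0.080 to 0.12 for KRT7, from 0.067 to 0.20 for KRT8, from 0.020 to 0.20 for KRT19 and from 0.050 to 0.15 for LMNA. KRT17, at -0.22 with all 4 libraries, was at -0.52 without sh812 replicate 2 and changed sign to 0.033 without sh812 replicate 1. What causes these differences between removals was not tested. Of the 11 partner genes called, NEFL and SYNE2 kept their calls in each alternative, library removals included. Without sh812 replicate 1 or 2, the calls of EMD, LBR, LMNB1, MACF1, NES, PKP2 and PKP3 were lost; the values of NES were then -0.20 and -0.21, of LMNB1 0.21 and 0.24, and of MACF1 -0.27 and -0.22. SYNE1 also lost its call without sh812 replicate 1, and DSC2 without sh812 replicate 2.

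Across genes, libraries with the same replicate number deviated from their group means with a Pearson r of 0.0164. With 2 libraries per group this value is the same for both replicate numbers. It cannot show whether libraries with the same number shared a culture or batch that moved part of the genes. With the replicate block 2001 genes were called in all, KRT18 was the 1 called of the 10 (log2 fold change 0.31) and VIM had an adjusted p of 0.0501 in edgeR.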
